A study of Rattus norvegicus with 6 samples.

Results

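A set of 10 genes of the core circadian clock was followed in the lungs of Tmprss2 knockout (KO) and wild-type (WT) rats. They were Clock, Npas2, Bmal1 (listed in the deposited tables under its older symbol Arntl), Per1, Per2, Per3, Cry1, Cry2, Nr1d1 and Nr1d2. All 10 symbols were found among the 40995 genes of the count table, and all 10 passed the filter on low counts, which left 18464 genes to be tested. The 3 KO rats were of the line labelled crTMPRSS2, in which CRISPR/Cas9 had been used on Tmprss2, the gene of a membrane serine protease of airway and alveolar epithelium. Both they and the 3 WT rats were on a Sprague-Dawley background and received no treatment. Lung poly-A RNA of each biological replicate was sequenced as 1 library, and the labels place all 6 libraries in 1 batch. None of the sources used here gives the rats' age or sex, the exact allele, or the time of day at which the lungs were taken. Any difference in collection time between the groups therefore cannot be told apart from genotype. The set was chosen by the KO against WT fold changes of these same libraries, chiefly those of Nr1d1 and Nr1d2, so every fold change, interval and adjusted p of the 10 genes below is a description and no independent test.

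The mammalian clock is a transcriptional feedback loop that runs in nearly every cell, lung epithelium and fibroblasts included. BMAL1 pairs with CLOCK or its paralog NPAS2 and activates genes that carry E-box motifs, among them the Period, Cryptochrome and Nr1d genes. PER and CRY proteins accumulate and repress that pair, while the nuclear receptors REV-ERB alpha (Nr1d1) and REV-ERB beta (Nr1d2) repress Bmal1, Npas2, Clock and Cry1 through a response element called the RRE. In peripheral tissues of nocturnal rodents, Nr1d1 mRNA peaks in the light phase, Nr1d2 and Per3 soon after it, Per1 and Per2 around the change from light to dark, and Cry1 and Bmal1 in the night or at its end. A single sample of a tissue thus gives levels at 1 moment of the cycle.

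Start regions of Bmal1, Nr1d1 and Per2 are shown because matches to motifs of the loop's 2 arms were found in them. These motifs are the E-box of activation, or a variant of it, and the RRE of repression. RefSeq windows (build GRCr8), from 250 bases before to 50 after a transcript start, were found for 9 of the 10 genes, all but Cry1, with a pair of starts each for Nr1d1 and Clock. The 250 bases before the start are printed 5′ to 3′ on the gene's strand, with capitals for an RRE, an E-box (CACGTG), an E′-box (CACGTT) or a D-box (TTATGTAA or TTACGTAA) on either strand.
Bmal1, chr1:176766078-176766327, plus strand: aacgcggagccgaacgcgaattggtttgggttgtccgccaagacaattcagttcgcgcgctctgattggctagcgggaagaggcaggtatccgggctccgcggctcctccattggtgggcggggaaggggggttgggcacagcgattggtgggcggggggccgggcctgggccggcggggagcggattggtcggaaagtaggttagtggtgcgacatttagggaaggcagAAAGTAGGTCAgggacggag
Nr1d1, first start, chr10:84231813-84232062, minus strand: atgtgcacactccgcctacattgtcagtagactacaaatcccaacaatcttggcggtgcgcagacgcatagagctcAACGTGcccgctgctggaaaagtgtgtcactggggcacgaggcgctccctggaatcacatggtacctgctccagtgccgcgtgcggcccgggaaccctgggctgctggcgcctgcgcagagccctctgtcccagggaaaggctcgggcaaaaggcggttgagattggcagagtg
Nr1d1, second start, chr10:84229455-84229704, minus strand: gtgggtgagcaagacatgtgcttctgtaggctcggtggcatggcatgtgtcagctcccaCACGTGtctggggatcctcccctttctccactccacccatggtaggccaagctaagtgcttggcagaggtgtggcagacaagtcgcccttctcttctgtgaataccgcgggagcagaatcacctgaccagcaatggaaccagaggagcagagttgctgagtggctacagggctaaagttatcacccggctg
Per2, chr9:99496994-99497243, minus strand: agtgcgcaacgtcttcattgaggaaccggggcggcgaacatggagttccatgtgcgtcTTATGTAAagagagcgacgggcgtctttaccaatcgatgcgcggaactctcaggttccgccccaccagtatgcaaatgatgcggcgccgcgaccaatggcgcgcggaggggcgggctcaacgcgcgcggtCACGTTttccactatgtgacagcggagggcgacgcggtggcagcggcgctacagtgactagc

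The Bmal1 window held the single RRE found among the 9 genes, at positions -20 to -10, where -1 is the base next to the start. Its last 6 letters are the nuclear receptor half-site AGGTCA, so these 2 motifs overlap there. An RRE was present in 0.356% of all 33469 rat windows of the same length. Stretches that differ from the pattern, such as aaagtaggtta further upstream in the Bmal1 window, were not counted. The canonical E-box was found in the window of the second Nr1d1 start, at -191 to -186, and in no other window of the 9 genes, against 6.42% of all windows. An E′-box stood in the windows of the first Nr1d1 start, Per2 and Cry2 (4.83% of all windows), and a D-box in that of Per2 alone (1.01%). The windows of Clock, Npas2, Per1, Per3 and Nr1d2 held none of the motifs marked by capitals. These matches are descriptions of letters in short windows, and a window without a match says nothing of more distant elements.

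Nr1d1 and Nr1d2 were higher in every KO lung than in any WT lung, about 4.01-fold and 2.23-fold by mean level. Per3 was higher too, 1.48-fold, and Cry1 was lower in every KO lung, at 0.627 of the WT mean. The other 6 core genes, Clock, Npas2, Bmal1, Per1, Per2 and Cry2, overlapped between the groups. With all 6 libraries, 0 of the 10 genes passed edgeR's quasi-likelihood test (adjusted p under 0.05), where 0.0542% of the tested genes did (0.0162% higher and 0.0379% lower in KO), and 4 of the 10 had an unadjusted p under 0.05, where 11.3% of tested genes did. The groups did not overlap for 4 of the 10, 3 higher and 1 lower in KO, where the groups did not overlap for 22.8% of tested genes, 11.4% in each direction. Without WT replicate 1, a library that stands apart, Nr1d1 and Nr1d2 rose and Cry1 fell in the same test, where 1.65% of tested genes were called higher and 2.34% lower (3.99% in all). In those 5 libraries the groups did not overlap for 6 of the 10, with Cry2 added to the higher and Clock to the lower genes, where they did not for 34.6% of tested genes (17.1% higher and 17.5% lower). These shares stand beside counts from the contrast that chose the genes, and nothing is read from them.

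**Figure D1:**
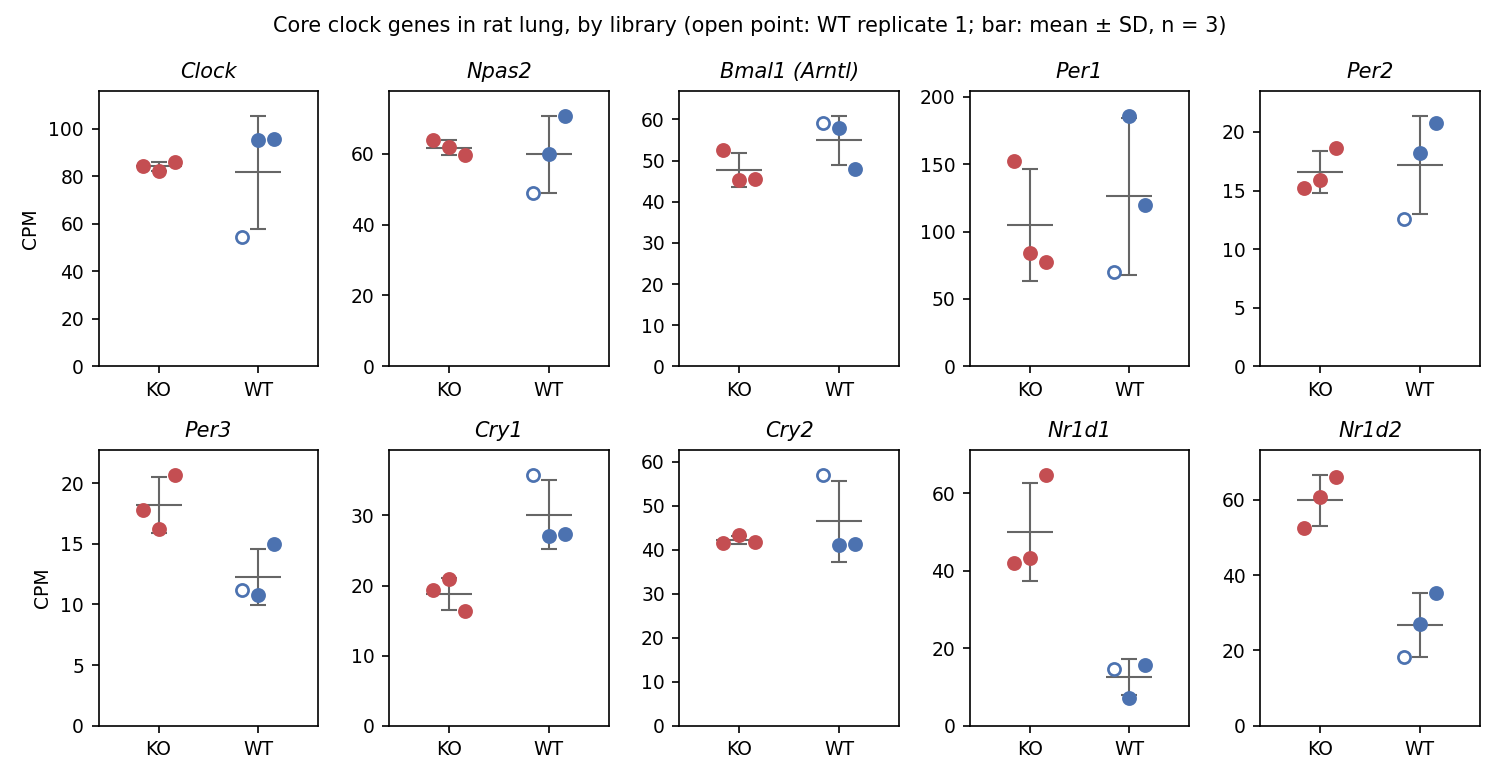
Level of each core clock gene in CPM (counts scaled to the library's size, vertical axes from 0) in the 3 KO and 3 WT lungs, each point 1 library and the bar the mean ± SD. Nr1d1 ran from 42.0 to 64.7 CPM in KO and from 7.06 to 15.6 CPM in WT, and Nr1d2, Per3 and Cry1 also had no overlap between the groups.

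Library totals were 29933359 to 30514778 counts in KO and 33033732 to 36895162 in WT, and the core clock genes held 234 to 6174 counts each per library. WT replicate 1 stood at 109 on the first principal component of log2 CPM (59.8% of the variance), and the other 5 libraries at -30.6 to -9.09. Over 12 skeletal muscle markers it summed to 11200 CPM, against 23.9 to 52.3 CPM in the other 5, and over 11 squamous epithelium markers to 3390 CPM against 12.5 to 21.3 CPM. The other libraries were not alike in cardiac muscle markers. These 8 summed to 191, 384 and 878 CPM in KO and to 701, 208 and 325 CPM in WT. Actc1 made up 649 CPM of the sum in WT replicate 1. Of the 8, 7 had a log2 fold change above 0 and 1 below it. Lung epithelium markers, 10 of 10 detected in every library, summed to 23400 to 25700 CPM in KO and 25700 to 37100 CPM in WT. WT replicate 1 was the highest, and the other 5 libraries lay at 23400 to 26700 CPM. Of the 10 markers, 7 had a log2 fold change below 0 and 3 above it, Scgb1a1 (0.47) among these. The Y-linked gene Kdm5d was at 66.9 to 68.1 CPM in KO and 44.2 to 67.2 CPM in WT, so all 6 libraries carried Y-linked RNA. Tmprss2 itself was at 46.1, 56.4 and 47.0 CPM in KO and 50.5, 62.0 and 65.7 CPM in WT (log2 fold change -0.25, SE 0.14, adjusted p = 0.508), and a gene total cannot show the edit. The part of these marker differences in the clock gene levels was not tested, and each core gene is given with all 6 libraries and without WT replicate 1. In bulk lung, fewer cells of a type and less RNA per cell cannot be told apart.

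The activators overlapped between the groups. Clock (chromosome 14, 31908542 to 31992673 of mRatBN7.2), the histone acetyltransferase partner of BMAL1, had 84.5, 82.1 and 85.8 CPM in KO and 54.3, 95.1 and 95.8 CPM in WT. WT replicate 1 was the lowest library and the other 2 WT libraries the highest, so the log2 fold change was 0.04 (95% interval -0.45 to 0.54) with all 6 libraries and -0.18 (-0.31 to -0.05, adjusted p = 0.146) without it. Npas2 (chromosome 9, 41463361 to 41642322), the paralog that can stand in for CLOCK, had 63.7, 61.8 and 59.6 CPM in KO and 48.9, 59.8 and 70.7 CPM in WT. The KO values lay inside the WT range, with log2 fold changes of 0.04 (-0.29 to 0.38) and, without WT replicate 1, -0.08 (-0.26 to 0.10).

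Bmal1 (chromosome 1, 167331756 to 167430235), the partner shared by both and the best-known REV-ERB target, had 52.5, 45.3 and 45.4 CPM in KO against 59.0, 57.8 and 48.0 CPM in WT. The 2 lowest libraries were KO and the 2 highest WT, but KO replicate 1 lay above WT replicate 3. The log2 fold change was -0.20 (SE 0.12, interval -0.48 to 0.08, adjusted p = 0.534) and, without WT replicate 1, -0.15 (-0.36 to 0.07, adjusted p = 0.494). Per length, Bmal1 averaged 10.1 ± 0.882 FPKM (fragments per kilobase of transcript, scaled for depth) in KO and 11.6 ± 1.32 FPKM in WT (SD, n = 3 each), a level near that of Cry2.

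Among the Period genes, which encode the repressors that hold CRY in the nuclear complex, Per3 was the one whose groups did not overlap. Per3 (chromosome 5, 161460228 to 161495404) had 17.8, 16.2 and 20.7 CPM in KO and 11.2, 10.8 and 15 CPM in WT. Its log2 fold change was 0.56 (SE 0.18, adjusted p = 0.344) with all 6 libraries and 0.50 (SE 0.16, adjusted p = 0.126) without WT replicate 1. The gap was narrow, since WT replicate 3 stood just below KO replicate 2.

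Per1 (chromosome 10, 53800126 to 53814963), which is also induced acutely by glucocorticoid and cyclic AMP signals, had 152, 84.4 and 77.1 CPM in KO and 70.2, 186 and 120 CPM in WT. It varied 1.98-fold among KO lungs and 2.65-fold among WT lungs, the widest spread of any core gene inside a group, in both groups. The log2 fold change was -0.26 (interval -1.17 to 0.65) and -0.55 (-1.13 to 0.03, adjusted p = 0.308) without WT replicate 1. Without WT replicate 2, the library with the most Per1, it was 0.14, so the data give no direction. Per2 (chromosome 9, 92007289 to 92049551), a repressor whose loss shortens or abolishes behavioural rhythms in mice, had 15.2, 15.9 and 18.6 CPM in KO and 12.6, 18.2 and 20.8 CPM in WT. These overlapped, with log2 fold changes of -0.05 (-0.53 to 0.43) and -0.23 (-0.50 to 0.04).

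The 2 cryptochromes, the strongest repressors of CLOCK and BMAL1, differed from each other. Cry1 (chromosome 7, 18529823 to 18594092) had 19.3, 20.9 and 16.4 CPM in KO and 35.8, 27.1 and 27.3 CPM in WT, with every KO library below every WT library. The log2 fold change was -0.67 (SE 0.16, adjusted p = 0.248) with all 6 libraries, and without WT replicate 1 Cry1 fell by 0.53 (SE 0.11, adjusted p = 0.0282). Cry2 (chromosome 3, 78374995 to 78405001) had 41.5, 43.3 and 41.7 CPM in KO and 57.0, 41.1 and 41.2 CPM in WT. Of the 6 libraries, 5 were within a narrow band and WT replicate 1 lay above it, so the log2 fold change of -0.14 (-0.48 to 0.20) became 0.04 (-0.11 to 0.19) without that library. The ratio of Cry1 to Cry2 FPKM within a library was 0.637, 0.663 and 0.539 in KO and 0.861, 0.907 and 0.909 in WT.

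The REV-ERB genes showed the largest differences of the set. Nr1d1 (chromosome 10, 83728348 to 83735562), the heme-binding repressor REV-ERB alpha, had 42.0, 43.3 and 64.7 CPM in KO against 14.7, 7.06 and 15.6 CPM in WT. The lowest KO library held more than the highest WT library by a wide margin, and the full range over the 6 libraries was 9.17-fold. The log2 fold change was 2.00 (SE 0.32, interval 1.25 to 2.76, adjusted p = 0.127), and without WT replicate 1 Nr1d1 rose by 2.13 (SE 0.29, adjusted p = 0.00399).

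Nr1d2 (chromosome 15, 7524257 to 7550553), the paralog REV-ERB beta, had 52.6, 60.9 and 66.0 CPM in KO against 18.2, 27.0 and 35.2 CPM in WT. Its log2 fold change was 1.16 (SE 0.23, interval 0.61 to 1.70, adjusted p = 0.193), and without WT replicate 1 it rose by 0.94 (SE 0.12, adjusted p = 0.00324). The KO libraries had the same order for both genes, whereas WT replicate 2 was lowest for Nr1d1 and WT replicate 1 for Nr1d2. Per length, Nr1d1 exceeded Nr1d2 in KO, at 17.6 ± 4.48 and 12.9 ± 1.45 FPKM (SD, n = 3), while in WT Nr1d1 had 4.41 ± 1.67 FPKM and Nr1d2 5.79 ± 1.81 FPKM (SD, n = 3). WT replicate 1 differed from the other WT libraries in having more Nr1d1 than Nr1d2, at 5.23 and 3.96 FPKM. By mean over all 6 libraries the 10 genes ran from Per1, at 13.5 FPKM, to Per3, at 2.34 FPKM, the 71.4th and 36.5th percentiles of the tested genes.

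**Figure D2:**
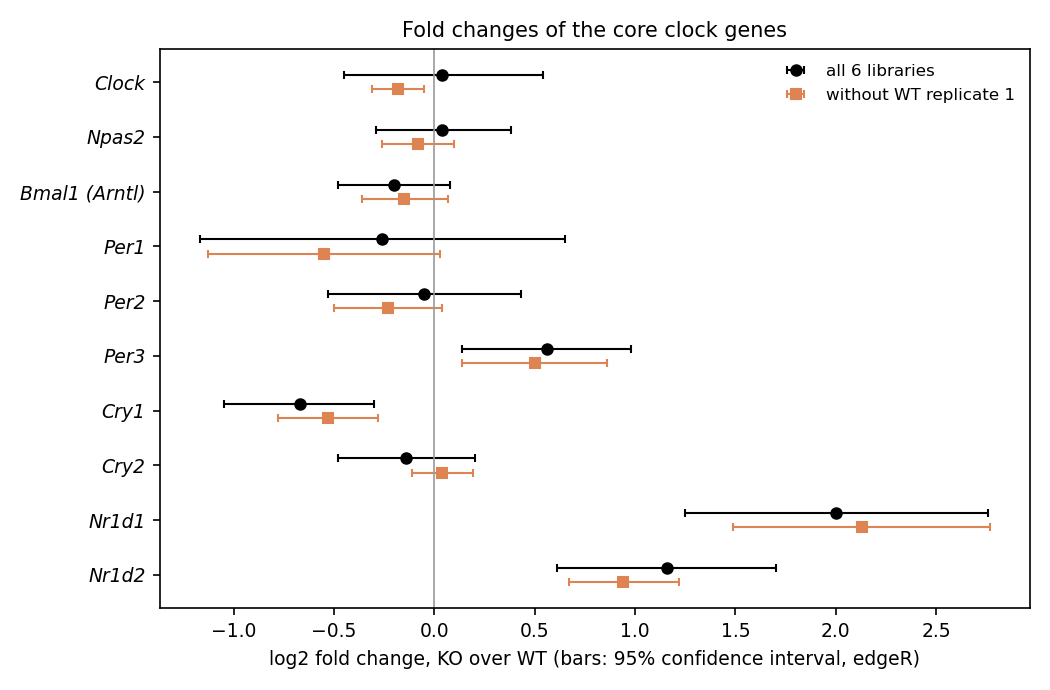
Log2 fold change of each core clock gene, KO over WT (horizontal axis), with 95% confidence intervals from edgeR, for all 6 libraries and without WT replicate 1. Intervals of Nr1d1, Nr1d2, Per3 and Cry1 lie off 0 in both fits, and that of Nr1d1 spans 1.25 to 2.76 with all 6.

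A neighbouring gene bears on Nr1d1. The 3′ end of Nr1d1 shares 1061 bases with that of Thra, the thyroid hormone receptor alpha gene on the opposite strand. No source used here says whether counting used strand, so reads from the shared bases of the 2 genes cannot be told apart. Thra had 150, 151 and 150 CPM in KO and 200, 133 and 135 CPM in WT. Its log2 fold change was -0.06 (adjusted p = 0.886) with all 6 libraries, 0.17 (adjusted p = 0.143) without WT replicate 1 and 0.07 with scaling by total count alone. Uncharacterised genes overlap Clock, Npas2, Cry1 and Cry2, and none of these 4 exceeded 0.508 CPM in any library.

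Other tests on the same 6 libraries differed in how many core genes they called. DESeq2 called Nr1d1, Nr1d2 and Cry1, where it called 2.71% of all tested genes. Limma-voom with sample quality weights, which gave WT replicate 1 a weight of 0.0772, called these and Per3, where it called 9.08% of tested genes. Limma-voom without weights called 0 of the 10 (0.0379% of tested genes), and so did limma when 1 (0.0596%) or 0.1 (0.0758%) was added to FPKM before the log2. The median log2 fold change of the 10 genes was 0.00, as it was over all tested genes, since 5 lay above 0 and 5 below. The authors' deposited table of differential genes lists 192 genes, 0.468% of the count table, and its smallest absolute log2 fold change is 1.00. In the authors' deposited table Nr1d1 has a log2 fold change of 2.00 (adjusted p = 3.87e-08) and Nr1d2 one of 1.15 (adjusted p = 0.000313), and the other 8 core genes are not listed.

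Read by the phase at which rodent tissues are known to express them, the 3 genes that peak in the light phase or soon after, Nr1d1, Nr1d2 and Per3, were those higher in KO. The genes of the light-to-dark change, Per1 and Per2, overlapped. Of the genes with a peak in the night or at its end, Cry1 was lower in KO, while Bmal1 overlapped with its KO mean below its WT mean. Clock and Npas2, REV-ERB targets like Bmal1, both overlapped with a log2 fold change of 0.04, and of -0.18 and -0.08 without WT replicate 1. Ratios within a library put the levels of these genes side by side. They are made of the fold changes already given, by which the genes were chosen, and add no support to them. Nr1d1 to Bmal1 by FPKM was 1.33, 1.59 and 2.37 in KO and 0.415, 0.204 and 0.542 in WT. The mean log2 ratio was 0.78 ± 0.43 in KO and -1.48 ± 0.73 in WT (SD, n = 3 each), a difference of 2.26, or 2.37 without WT replicate 1. Nr1d1 to Cry1 was 2.26, 2.15 and 4.10 in KO and 0.426, 0.269 and 0.594 in WT, and the 2 groups differed by 2.73 in the mean log2 ratio. All KO libraries had more Nr1d1 than Bmal1 or Cry1 per length, and all WT libraries had less. That split at 1 did not hold for every ratio taken. Nr1d1 to Clock was 2.0, 2.13 and 3.04 in KO and 1.09, 0.299 and 0.657 in WT. Nr1d1 to Nr1d2 overlapped between the groups, at 1.3, 1.16 and 1.6 in KO and 1.32, 0.428 and 0.725 in WT.

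**Figure D3:**
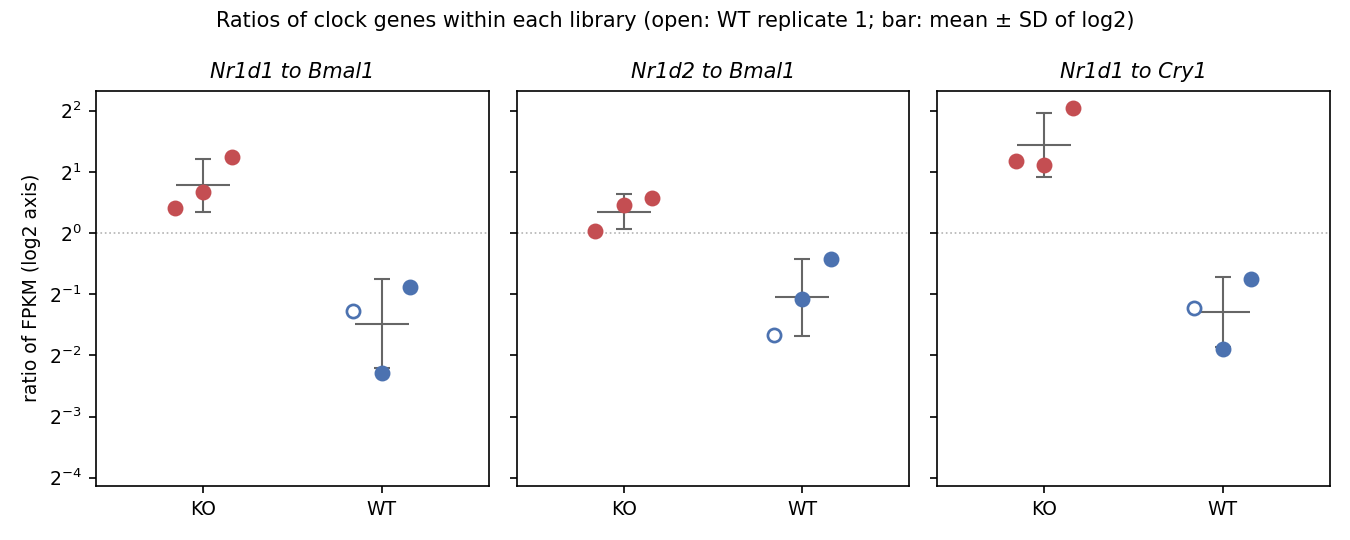
Ratios of FPKM within each library (vertical log2 axis) for Nr1d1 to Bmal1, Nr1d2 to Bmal1 and Nr1d1 to Cry1, each point 1 library and the bar the mean ± SD of the log2 ratio. Every KO point is above 1 and every WT point below it, with Nr1d2 to Bmal1 nearest to 1 at 1.02 in KO replicate 1 and 0.748 in WT replicate 3.

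Over the 6 libraries, log2 CPM of Nr1d1 varied with that of Per3 at Pearson r = 0.927 and with Nr1d2 at 0.849, and against Cry1 at -0.823 and Bmal1 at -0.741. Its r with Clock was 0.02, with Per2 -0.04 and with Per1 -0.47. Without WT replicate 1 these 3 were -0.865, -0.434 and -0.762, and r was 0.955 with Per3, 0.990 with Nr1d2, -0.923 with Cry1 and -0.746 with Bmal1. These coefficients describe 5 or 6 libraries that share the split into genotypes, so a gene that differs between the groups has a large r whatever it does within them. Among 13792 other genes with a mean of at least 1 CPM and a symbol, the pattern most like that of Nr1d1 was that of Chst15 (r = 0.992), a sulfotransferase, then Trub1, Msl3l2, Zfp956, Ube4a and Mlc1 (0.976 to 0.990). The most opposite were Zfp112 (r = -0.993), Commd4, Tnpo3, Specc1l, Efnb2 and Nrep (to -0.976). None of these 12 belongs to a clock list. Their log2 fold changes were -0.31 to 0.65, and none passed with all 6 libraries. From the top of that order Tef ranked 13, Per3 49 and Nr1d2 234, and from the bottom Bhlhe41 ranked 142, Cry1 453 and Bmal1 853. These ranks change when WT replicate 1 is left out, where Tef ranked 77, Per3 230 and Nr1d2 23 from the top, and Bhlhe41 830, Cry1 593 and Bmal1 2244 from the bottom.

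For the output of the loop, 16 clock-controlled and accessory transcription factors were listed, of which 14 passed the filter on low counts and were tested. With all 6 libraries 0 of 14 passed edgeR, 6 had an unadjusted p under 0.05 (11.3% of all tested genes did) and DESeq2 called 1 (2.71% of all tested genes). The log2 fold changes were above 0 for 8 and below 0 for 6, with a median of 0.10 against 0.00 over all tested genes. Tef, a PAR bZIP activator that binds D-boxes, had 111, 113 and 112 CPM in KO and 95.2, 80.4 and 88.0 CPM in WT, and rose by 0.41 (SE 0.06, adjusted p = 0.00817) without WT replicate 1. Bhlhe41 (DEC2), which represses at E-boxes, had 16.4, 16.5 and 14.6 CPM in KO and 22.6, 22.3 and 24.4 CPM in WT, and fell by 0.56 (adjusted p = 0.0172) without that library. Those 2 of 14 were the calls of the list in that fit, which called 3.99% of all tested genes.

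The paralog Bhlhe40 (DEC1) had 21.7, 25.3 and 27.3 CPM in KO and 42.4, 38.5 and 30.5 CPM in WT, and Klf10, a Krüppel-like factor, 54.9, 75.8 and 74.3 CPM in KO and 123, 92.0 and 92.7 CPM in WT. Neither pair of groups overlapped, and neither gene passed in either fit (without WT replicate 1, adjusted p = 0.0635 and 0.0758). Dbp and Ciart, both E-box targets with a daytime peak, were named after their values were seen. Their r with Nr1d1 over the 6 libraries was 0.592 and -0.689. Dbp had 8.09, 8.64 and 10.5 CPM in KO and 8.70, 7.93 and 6.70 CPM in WT. Its log2 fold change was 0.22 (adjusted p = 0.629), and 0.31 (adjusted p = 0.389) without WT replicate 1. Ciart had 0.842, 1.54 and 1.12 CPM in KO and 1.79, 1.84 and 2.68 CPM in WT, only 26 to 100 counts per library. Its KO values were all below its WT values, with a log2 fold change of -0.85 (adjusted p = 0.420). Without WT replicate 1 the log2 fold change of Ciart was -0.95 (adjusted p = 0.195). The daytime genes were thus not all on the same side. Ciart, which differed, had few counts but no overlap between the groups, whereas Dbp overlapped.

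**Figure D4:**
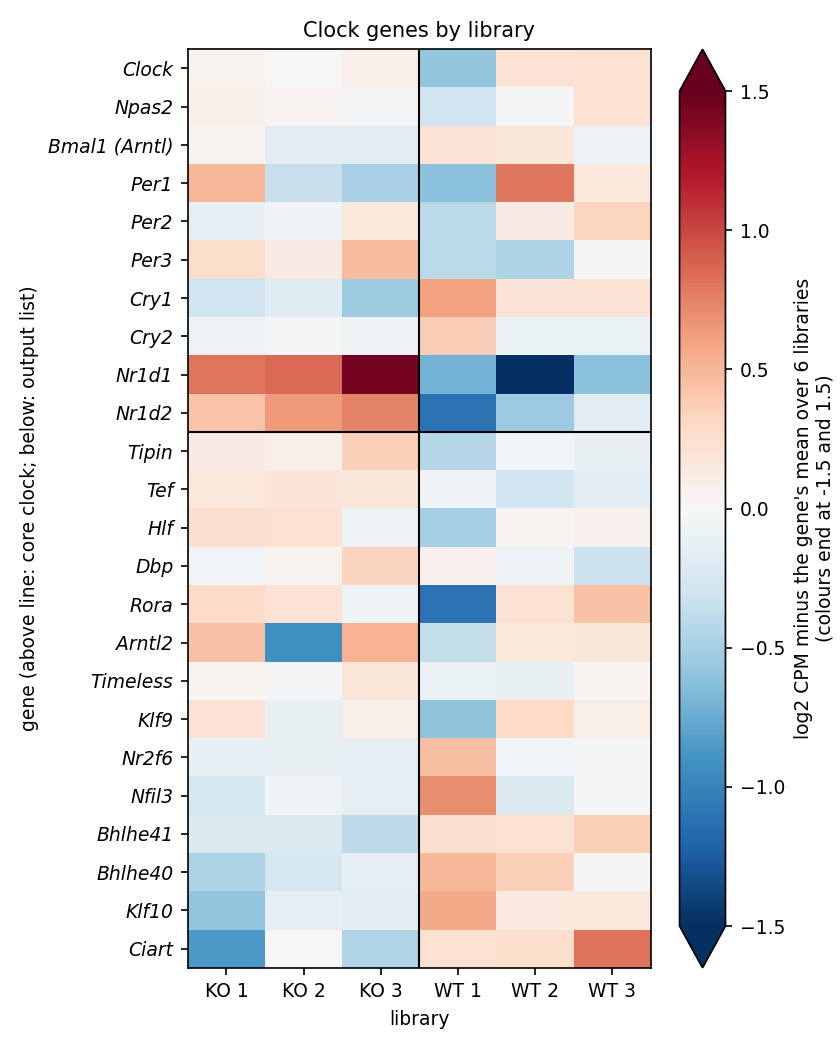
Log2 CPM of the 10 core clock genes (above the line) and 14 tested output and accessory factors (below it) in each library, minus the gene's mean over the 6 libraries, with KO libraries left of WT. Nr1d1 runs from 0.81 to 1.43 in KO and from -1.76 to -0.62 in WT, and WT replicate 1 departs from the other WT libraries for Clock (-0.59) and Rora (-1.11).

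The enzymes that modify clock proteins, such as the casein kinases that phosphorylate PER, gave no call: 0 of 19 by edgeR, 0 by DESeq2 and 0 at an unadjusted p under 0.05, with a median log2 fold change of -0.02. The smallest p belonged to Csnk2a1, a catalytic subunit of casein kinase 2, at 155, 161 and 161 CPM in KO and 138, 145 and 147 CPM in WT. Csnk2b, Usp2 and Siah2 followed with log2 fold changes of -0.33, -0.65 and -0.23. Without WT replicate 1 these were -0.04, 0.08 and -0.27. Of 15 coregulators of clock complexes, among them NCOR1 and HDAC3, which REV-ERB recruits, 0 passed by edgeR or DESeq2 and 0 had an unadjusted p under 0.05 (median 0.05). Ncor1 had 143, 145 and 140 CPM in KO and 128, 135 and 156 CPM in WT.

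Of 15 further genes that cycle in many rodent tissues, 0 passed with all 6 libraries by edgeR or DESeq2, 2 had an unadjusted p under 0.05, a share near the 11.3% of all tested genes, and 12 were below 0 (median -0.14), as were 9286 of the 18464 tested genes. Cdkn1a, the cell cycle inhibitor p21, had 44.2, 36.2 and 34.9 CPM in KO and 84.4, 50.9 and 51.3 CPM in WT, and fell by 0.41 (adjusted p = 0.0477) without WT replicate 1. Coq10b was the other of the 2 calls in that fit, at -0.35 (adjusted p = 0.0335), where 3.99% of all tested genes were called. Tars1, Ppard and Por, with log2 fold changes of -0.25, -0.34 and -0.19, were lower without overlap and did not pass.

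Sets that respond to hormones or handling were also counted. Of 12 glucocorticoid targets, which include Per1, 0 passed edgeR with all 6 libraries and DESeq2 called 3 (2.71% of all tested genes), with a median of -0.33 and 3 at an unadjusted p under 0.05 (11.3% of all tested genes). Without WT replicate 1, Sgk1, Mt1 and Dusp1 fell, by 0.51, 0.99 and 0.91, where 3.99% of all tested genes were called. Dusp1, a MAP kinase phosphatase, had 95.6, 101 and 104 CPM in KO and 284, 220 and 157 CPM in WT. Tsc22d3 (GILZ), a direct glucocorticoid receptor target, had 204, 154 and 151 CPM in KO and 169, 276 and 211 CPM in WT. Its log2 fold change was -0.37 (adjusted p = 0.518), and -0.52 (adjusted p = 0.0663) without WT replicate 1. Within each group the Tsc22d3 libraries stood in the same order as for Per1, and no other listed target had that order in both groups. This comparison of orders was not planned. With 3 libraries per group a shared order says little, and a link to Per1 was not tested.

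Of 14 tested immediate early genes, which are induced within minutes of stimulation or handling, 13 were below 0, as were 9286 of all 18464 tested genes (median of the list -0.74, and -0.39 without WT replicate 1). With all 6 libraries 0 passed edgeR, 8 had an unadjusted p under 0.05 (11.3% of all tested genes did) and DESeq2 called 2 (2.71%). Without WT replicate 1, Atf3 and Dusp1 fell, where 3.99% of all tested genes were called. Atf3 had 10.7, 10.4 and 14.5 CPM in KO and 44.9, 35.1 and 18.3 CPM in WT. Natural killer cell markers, 9 of 9 detected in every library, summed to 228 to 232 CPM in KO. In WT they summed to 24.9 CPM in replicate 1 and to 120 and 122 CPM in replicates 2 and 3. B cell markers, 5 of 5, summed to 94.3 to 116 CPM in KO. In WT they were at 33.2 CPM in replicate 1 and at 70.8 and 56.5 CPM in replicates 2 and 3. The part of any of these sets in the levels of the clock genes was not tested.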

How the data were processed

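The submitters' processing notes name mRatBN7.2 as build and, without roles or settings, DESeq2 1.42.0, featureCounts 2.0.6, StringTie 2.2.3, HISAT2 2.2.1 and CASAVA. Unnormalized counts for each gene were deposited. Even low counts outnumbered odd ones (3318 genes with 2 to 10 against 1802 with 1 to 9 in WT replicate 2), as when both mates are counted, so independent fragments are fewer than counts. The deposited FPKM equalled the count over gene length and over a library size proportional to the authors' size factor. The authors' deposited table holds, for 192 genes, p-values, log2 fold changes and a normalized signal, which is the count over that size factor.

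Counts were analysed with edgeR 4.0.16 in R 4.3.3: filterByExpr (minimum count 10, minimum total 15), TMM, then glmQLFit and glmQLFTest on genotype alone. P-values were adjusted by Benjamini-Hochberg over 18464 genes, with a threshold of 0.05. CPM use TMM library sizes, and SE is the log2 fold change over the square root of F. Every adjusted p is from edgeR unless another source is named. Alternatives were other scalings, filters, DESeq2 1.42.0, limma 3.58.1 (voom, and log2 of FPKM plus 1 or 0.1), a replicate block and leaving out each library. The labels call the libraries biological replicates, and p-values measure the spread between them.

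The members and lists were chosen with earlier results of these data known. All 98 list symbols matched the table. Named genes are the members, Tmprss2, overlapping genes, up to 4 per list by smallest p, and the 6 most and 6 least like Nr1d1 by Pearson r of log2 CPM (prior count 2). Outside that rule stand Ncor1, Rora, single cell type markers, genes said to be named after their values were seen and genes given as the calls of a list. Promoter windows are RefSeq's, on GRCr8. No genome sequence was used otherwise.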

Additional observations from a re-analysis of the deposited data

How the results depend on the processing

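Of 180 refitted fold changes of the core clock genes, 10 per alternative, 160 kept their sign and their side of the threshold, 10 newly passed and 10 changed sign, in Clock, Npas2, Per1, Per2 and Cry2. Nr1d1 (1.72 to 2.49), Nr1d2 (0.94 to 1.40), Per3 (0.39 to 0.73), Cry1 (-0.75 to -0.52) and Bmal1 (-0.29 to -0.09) kept their sign under all 18 alternatives, with adjusted p from 2.24e-07 to 0.534 for Nr1d1, 0.000469 to 0.787 for Nr1d2 and 0.00933 to 0.794 for Cry1. The number of core clock genes called was 0 in the fit as reported, 3 with DESeq2, 4 with sample quality weights in limma-voom, and 0 to 3 with each library left out in turn, where only leaving out WT replicate 1 gave a call. Over all genes, 10 were called in the fit as reported, 501 with DESeq2, 1676 with sample quality weights, 2 with the replicate block, and 1 to 758 with each library left out. Among the genes named by the stated rule, with each library left out in turn, log2 fold changes that took both signs were those of Clock (-0.18 to 0.17), Npas2 (-0.08 to 0.18), Per1 (-0.64 to 0.14), Per2 (-0.23 to 0.11, and 0.0034 without KO replicate 1), Cry2 (-0.22 to 0.04), Usp2 (-0.95 to 0.08) and Thra (-0.16 to 0.17). Genes named outside that rule were not followed through all alternatives. Of these, Rora went from 0.16 with all libraries to -0.18 without WT replicate 1, and Ncor1 from 0.03 to -0.03. Sample quality weights turned Clock to -0.17, Npas2 to -0.0005, Cry2 to 0.03, Thra to 0.16 and Ezh2 to -0.02, and total count scaling turned Per2 to 0.04 and Thra to 0.07. The cause was not tested. Total count scaling moved the median of all genes to 0.10. Same-numbered KO and WT libraries had r of deviations of -0.0808, 0.0275 and -0.0848, and differently numbered ones lay between -0.114 and 0.123. With 3 libraries per genotype and WT replicate 1 apart, these values cannot decide whether the numbers pair the libraries. The replicate block called 0 core clock genes.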
